A study of Mus musculus with 2 samples.

Results

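The nuclei described here were neurons of the mouse ventral tegmental area (VTA) that carried transcripts of Sim1 or Calcr. A barcode counted as a neuron when it held at least 500 UMIs (unique molecular identifiers, each standing for 1 captured transcript) and when Snap25, Syt1, Meg3, Snhg11, Rbfox3 and Nefl together made up at least 1% of them. A neuron was then taken when Sim1 and Calcr together reached 2 UMIs and 0.03% of its total. Neurons were left out when the GABA genes Gad1, Gad2 and Slc32a1 together reached 2 UMIs and 0.04%, when the dopamine genes Slc6a3, Slc18a2, Ddc and Th together reached 0.1%, or when Synpo2, Lef1, Ptpn3 and Prkcd together reached 0.1%. The rule took 358 of 14054 neurons, among 27850 barcodes in all. The CCI library gave 322 of these nuclei from 7335 neurons, and the WT library gave 36 from 6719 neurons. Because Sim1, Calcr and the genes of the exclusions chose the nuclei, their levels are given below as a description of the choice.

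The CCI library came from adult mice with chronic constriction injury, in which the left sciatic nerve was tied to produce neuropathic pain and the right nerve was exposed with no ligature. The WT library came from adult mice labelled as wild type, and the same protocol text stands beside both libraries. Each condition had 1 library, and the number of animals pooled, their sex, their strain and the hemisphere taken are not given in the sources used here. With no replicate there was no test between conditions. All intervals are exact 95% intervals and cover counting error only.

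Sim1 encodes a transcription factor of the bHLH-PAS family that hypothalamic neurons of the paraventricular and supraoptic nuclei need in order to form. Calcr encodes the calcitonin receptor, a G-protein-coupled receptor that also forms amylin receptors together with the RAMP accessory proteins. Nxph4 encodes a neurexophilin, a secreted glycoprotein of the family that binds neurexins at synapses. Slc17a6 encodes VGLUT2, the transporter that fills synaptic vesicles with glutamate in most excitatory neurons below the cortex. The VTA is best known for its dopaminergic neurons, and it also holds glutamatergic and GABAergic neurons and borders on the posterior hypothalamus.

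The 2 libraries differed several-fold in depth. The CCI library held 68376220 UMIs and the WT library 18581333. The median Sim1/Calcr nucleus had 6131 UMIs and 2881 genes in CCI, against 2129 UMIs and 1319 genes in WT. All neurons had a median of 6407 UMIs in CCI and 1664 UMIs in WT. Of the Sim1/Calcr nuclei, 23 in CCI (7.14%) and 4 in WT (11.1%) were called doublets, against 9.57% and 12.2% of all neurons in CCI and WT. The libraries shared 54 barcode sequences, and 1 Sim1/Calcr nucleus had a barcode that also occurred in the other library. Dopaminergic neurons, the neurons that mark the VTA, numbered 478 in CCI and 1007 in WT by the same kind of rule.

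Most of the nuclei were taken through Sim1 alone. In CCI, 207 nuclei (64.3%) had Sim1 without Calcr, 85 (26.4%) had both and 30 (9.32%) had Calcr without Sim1. In WT, 23 nuclei (63.9%) had Sim1 without Calcr, 4 (11.1%) had both and 9 (25.0%) had Calcr without Sim1. The highest count in 1 nucleus was 11 Sim1 UMIs and 9 Calcr UMIs in CCI, and 3 Sim1 UMIs and 4 Calcr UMIs in WT. Many nuclei stood at the threshold itself, since 102 CCI nuclei (31.7%) and 26 WT nuclei (72.2%) had a sum of exactly 2 UMIs. Just outside it, 399 CCI neurons and 153 WT neurons met the exclusions but had a sum of 1 UMI. Slc17a6 stood at 256 CPM (UMIs of a gene scaled to a common total per class) in the CCI nuclei with exactly 2 UMIs and at 224 CPM in the CCI neurons with 1, and Nxph4 at 84.7 CPM and 42.1 CPM in the same order. In WT, Slc17a6 stood at 240 CPM in the nuclei with exactly 2 UMIs and at 216 CPM in the neurons with 1.

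Few oligodendrocyte nuclei, which should hold neither transcript, passed the same threshold. Free RNA can put UMIs into any droplet, and of these nuclei 3 of 2689 in CCI (0.112%) and 0 of 3807 in WT reached the Sim1 and Calcr sum, and the count of 0, taken as 3 counts, allows a share of up to 0.0788% (exact upper bound 0.0969%). They were shallower than neurons, with a median of 2027 UMIs in CCI and 736 UMIs in WT. Sim1 itself was found in 1.75% of the CCI and 0.473% of the WT oligodendrocyte nuclei.

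Among all neurons, Sim1 was found more often in those with Calcr than in those without. This measure does not use the thresholds of the rule. It rests on the same 2 genes, so it is a description and no support for the type. In CCI, Sim1 was present in 34.5% of the 284 neurons with a Calcr UMI (29.0 to 40.4), against 9.66% of the 7051 without (8.98 to 10.4). In WT, the shares were 9.62% of 52 neurons with Calcr (3.20 to 21.0) and 2.34% of 6667 without (1.99 to 2.73). The neurons with Calcr were slightly deeper, with medians of 6732 UMIs against 6396 UMIs in CCI and 1964 UMIs against 1662 UMIs in WT.

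The label names 1 type of neuron, and the data went against that. When all neurons were clustered on their transcripts, the 358 nuclei fell into 12 of 24 clusters. Cluster 1 held 27.1% of them, the 3 clusters with the most held 69.8%, and the 5 with the most held 85.5%. No cluster was made up mainly of these nuclei: they were 93 of the 210 CCI neurons and 4 of the 33 WT neurons of cluster 1, and 30 of the 198 CCI neurons and 1 of the 26 WT neurons of cluster 4. They were 74 of 864 CCI neurons and 18 of 782 WT neurons in cluster 2, and 56 of 923 CCI neurons and 5 of 743 WT neurons in cluster 3. The nuclei are therefore called Sim1/Calcr nuclei here, after their rule, and the clusters go by number. Clusters 7 and 8, led by genes of oligodendrocytes and astrocytes, held 17 CCI and 2 WT nuclei, and 4 CCI and 1 WT nuclei. Other seeds and resolutions moved the boundaries, and the cluster with the highest Calcr held between 17.9% and 46.7% of the nuclei.

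**Figure D1:**
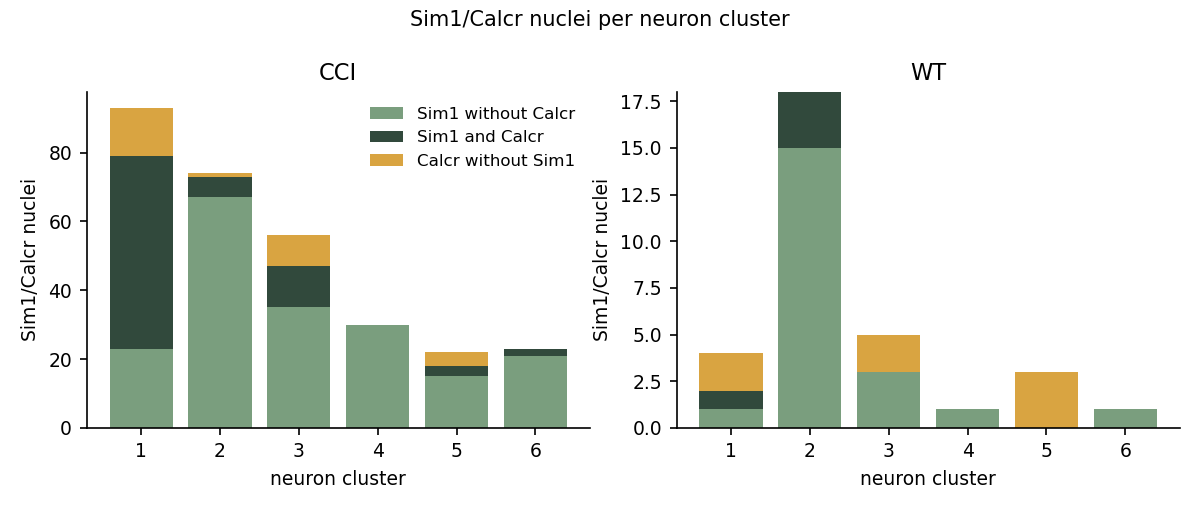
Number of Sim1/Calcr nuclei (vertical axis) in neuron clusters 1 to 6, the 6 that held the most (horizontal axis), for CCI on the left and WT on the right, with different vertical scales. Colours split each bar by which of the 2 genes was found. In CCI, 56 of the 93 nuclei of cluster 1 had both genes, while 67 of 74 in cluster 2 and all 30 in cluster 4 had Sim1 without Calcr.

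Cluster 1 was the one in which Sim1, Calcr and Nxph4 met. Its CCI nuclei that passed the rule had 315 CPM of Sim1, 321 CPM of Calcr and 108 CPM of Nxph4, and 56 of 93 carried both rule genes. Calcr was present in 75.3% of them and Nxph4 in 39.8%, at a median of 6296 UMIs. Ebf3, a transcription factor of the Collier/Olf/EBF family, stood at 377 CPM there, against 98.2 CPM in the other Sim1/Calcr nuclei of CCI. Col27a1 (46.6 and 3.85 CPM), the kinase gene Stk26 (65.9 and 8.99 CPM) and Gnasas1 (145 and 30.2 CPM) were also higher in cluster 1 than in the other nuclei. These values describe the cluster and are no test of it, because the clusters were made from the same transcripts.

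The rule left out neurons of cluster 1 that looked like those it took. The 117 CCI neurons of cluster 1 that failed it had a median of 5252 UMIs and still carried 91.5 CPM of Sim1 and 58.6 CPM of Calcr. Nxph4 stood at 108 CPM (83.4 to 137) in the cluster 1 nuclei that passed, against 112 CPM (88.2 to 139) in those that failed. Slc17a6 stood at 214 CPM in the CCI nuclei that passed and at 235 CPM in those that failed, and Ebf3 at 377 CPM and 416 CPM in the same order. The 29 WT neurons of cluster 1 that failed the rule had 98.7 CPM of Nxph4 (32.1 to 230), 178 CPM of Slc17a6 and 336 CPM of Ebf3, and the interval of Nxph4 holds both CCI values.

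Cluster 4 carried Sim1 and Nxph4 without Calcr. Calcr had 0 UMIs in its 30 CCI nuclei that passed the rule and 0 UMIs in the 168 CCI neurons that did not, where the upper bound was 3.70 CPM. Its CCI nuclei had 493 CPM of Sim1, 120 CPM of Nxph4 and 310 CPM of Slc17a6. Nkx2-1, a transcription factor of the ventral forebrain and hypothalamus, stood at 57.3 CPM there, and Foxb1, a transcription factor of the developing mammillary body, at 28.7 CPM. The dopamine receptor gene Drd3 stood at 51.6 CPM, against 1.99 CPM in the other Sim1/Calcr nuclei of CCI. Sfta3-ps, annotated as a non-coding processed transcript, reached 424 CPM and was present in 80.0% of them. Foxb1 was at 0 in the CCI nuclei of cluster 1 that passed the rule.

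The other clusters differed in how much Calcr stood beside Sim1. In cluster 2, the CCI nuclei had 490 CPM of Sim1, 25.0 CPM of Calcr and 28.5 CPM of Nxph4, and they stood apart through the relaxin receptor gene Rxfp1 (49.9 CPM, against 1.85 CPM in the other nuclei) and Foxp2 (346 and 75.9 CPM), a forkhead transcription factor. Cluster 3 had 396 CPM of Sim1, 157 CPM of Calcr and 31.3 CPM of Nxph4, with Calcr above the 141 CPM of all CCI nuclei, and all 5 Isl1 UMIs of the CCI nuclei lay there. Cluster 6 had 543 CPM of Sim1 and 13.4 CPM of Calcr, with Nfib at 1120 CPM and Ebf1 at 389 CPM, both transcription factors. Sim1 chose these nuclei, so its level in them says nothing of the clusters. Over all neurons of clusters 1 to 6, Sim1 was lowest in cluster 5 at 20.6 CPM and highest in cluster 1 at 197 CPM.

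**Figure D2:**
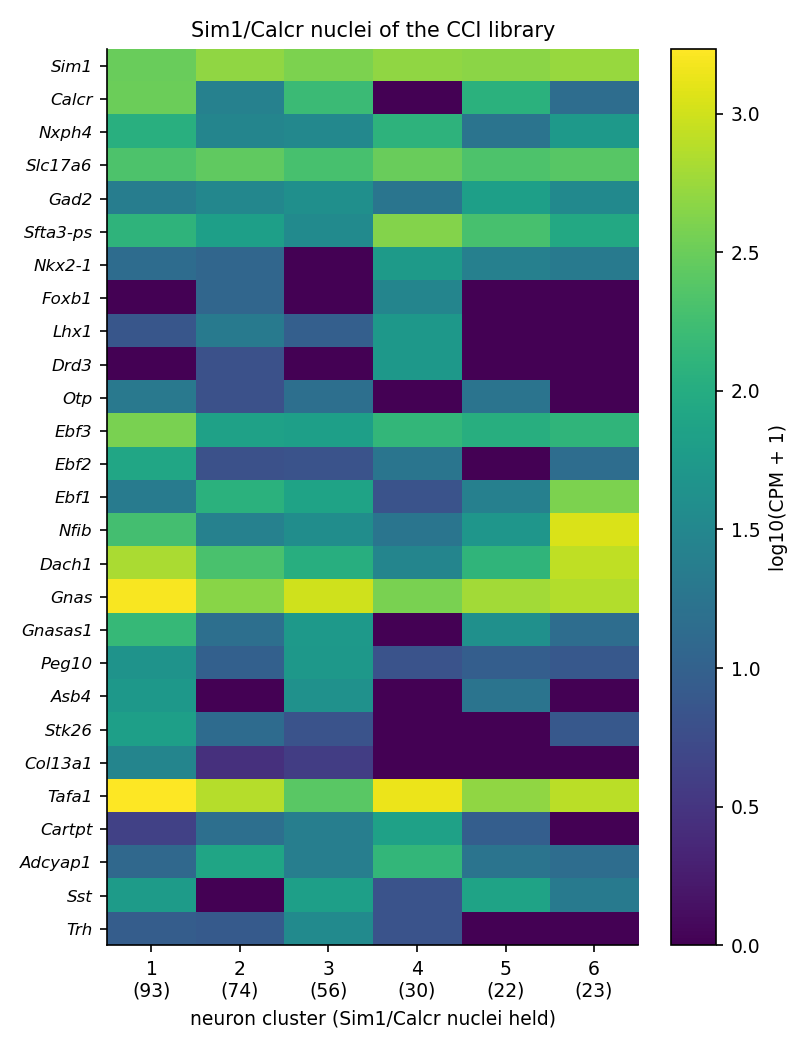
Level of 27 genes (rows, in log10 of CPM + 1, by colour) in the CCI Sim1/Calcr nuclei of neuron clusters 1 to 6 (columns, with the number of nuclei). Sim1 and Slc17a6 run across all 6 columns, Calcr is at 0 in cluster 4, Foxb1 and Drd3 are highest in cluster 4, Ebf3 and Gnas in cluster 1, and Nfib in cluster 6.

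As to transmitter, Slc17a6 was the glutamate transporter of these nuclei. It stood at 237 CPM in CCI nuclei (217 to 258) and at 260 CPM in WT nuclei (161 to 397). In other neurons it stood at 143 CPM in CCI and at 101 CPM in WT, so that the log2 ratio of the nuclei over other neurons was 0.73 in CCI (0.60 to 0.86) and 1.36 in WT (0.66 to 1.98). The rule left GABAergic and dopaminergic neurons, which are low in Slc17a6, among the other neurons. The ratio therefore describes the choice in part, and the size of that part was not tested. CCI neurons that met the same exclusions but had a sum of 0 Sim1 and Calcr UMIs had 179 CPM of Slc17a6 (174 to 184). At least 1 Slc17a6 UMI was found in 53.5% of them. At least 1 Slc17a6 UMI was found in 73.9% of CCI nuclei and 44.4% of WT nuclei, against 8.52% and 2.55% of the shallower oligodendrocyte nuclei of CCI and WT. After thinning every nucleus to 1000 UMIs the shares were 24.2% in CCI and 19.4% in WT, and 4.62% and 3.76% in oligodendrocyte nuclei of CCI and WT. The CCI level was close to that of the Ebf neurons (236 CPM), chosen by Ebf genes at 0.03% or more, and to that of the Synpo2 neurons (259 CPM). It was above the GABAergic (27.1 CPM) and dopaminergic neurons (29.6 CPM), both of which carry other transmitters.

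The other vesicular glutamate transporters were nearly missing. Slc17a7, which encodes VGLUT1, had 1 UMI in the CCI nuclei and 0 in the WT nuclei, and Slc17a8, which encodes VGLUT3, had 3 UMIs and 0 UMIs in the same order. In CCI both were more than 2-fold below other neurons, with log2 ratios of -3.55 (-8.86 to -1.06) and -2.53 (-4.82 to -0.98). Gad2, which encodes a GABA-making enzyme and took part in the exclusions, stood at 29.3 CPM in CCI nuclei, below the 35.3 CPM of CCI oligodendrocyte nuclei. Of genes for other transmitters, Tph2, which makes serotonin, had 1 UMI, Slc6a5, the glycine transporter, had 1 UMI and Chat, which makes acetylcholine, had 6 UMIs in the CCI nuclei.

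In CCI, Slc17a6 did not set the nuclei apart from the Ebf and Synpo2 neurons, whose levels are given above. Neurons chosen by Slc17a6 itself, at 0.03% or more, had 499 CPM of it in CCI and 838 CPM in WT. That choice set their level, so the contrast with them is no result. By patterns within the CCI nuclei, Slc17a6 stood at 267 CPM in those with Sim1 without Calcr, 205 CPM in those with both and 105 CPM in those with Calcr without Sim1. Gad2 stood at 64.1 CPM in the last of these, from 11 UMIs, against 24.8 CPM in those with Sim1 without Calcr.

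Nxph4, the third gene by which these neurons were known, was higher than in any other class of neurons examined in CCI. It stood at 61.9 CPM in CCI nuclei (51.9 to 73.3) and at 37.1 CPM in WT nuclei (7.65 to 108), where it rested on 3 UMIs. Other CCI neurons had 16.6 CPM, and the log2 ratio was 1.90 (1.63 to 2.16). Other WT neurons had 10.9 CPM, and the log2 ratio was 1.76 (-0.53 to 3.34), with an interval that spans 0. The next classes in CCI were the other Slc17a6 neurons with 37.3 CPM (31.9 to 43.3) and the Ebf neurons with 32.0 CPM (28.3 to 36.0), whose intervals lie below that of the CCI nuclei. GABAergic neurons had 5.99 CPM, dopaminergic neurons 3.46 CPM and oligodendrocyte nuclei 7.33 CPM.

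Nxph4 marked a minority of the nuclei. It was found in 26.7% of CCI nuclei and 5.56% of WT nuclei, against 1.49% and 0.341% of the shallower oligodendrocyte nuclei of CCI and WT. After thinning, the shares were 5.90% of CCI nuclei and 5.56% of WT nuclei, against 0.611% and 0.434% of oligodendrocyte nuclei of CCI and WT. Among all CCI neurons, Nxph4 was found in 30.6% of the 98 with both Sim1 and Calcr, 23.9% of the 681 with Sim1 only, 17.7% of the 186 with Calcr only and 8.13% of the 6370 with neither. Among all WT neurons it was found in 16 of 156 with Sim1 only and in 110 of 6511 with neither, and in 0 of 5 with both. Its level in the CCI nuclei was 93.8 CPM in those with Calcr and 44.6 CPM in those with Sim1 without Calcr.

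**Figure D3:**
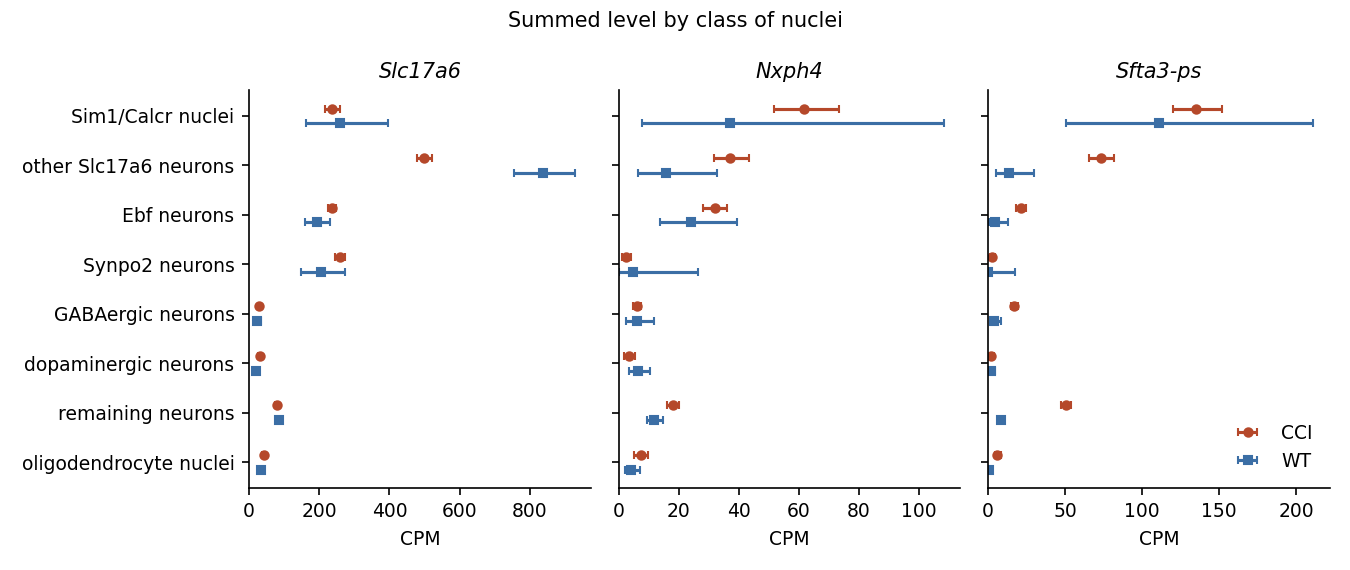
Level in CPM (horizontal axes, each with its own scale) of Slc17a6, Nxph4 and Sfta3-ps in Sim1/Calcr nuclei and 7 other classes of nuclei (vertical axis), in CCI (circles) and WT (squares), with exact Poisson 95% intervals. In CCI, Nxph4 is highest in the Sim1/Calcr nuclei at 61.9 CPM and Sfta3-ps at 135 CPM, while Slc17a6 at 237 CPM lies below the neurons chosen by that gene at 499 CPM.

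The genes of the neurexophilin and neurexin list parted ways. Nrxn3, a presynaptic adhesion molecule, was the gene most clearly lower than in other neurons in both libraries: 1881 CPM in CCI nuclei against 4861 CPM in other CCI neurons (log2 ratio -1.37, -1.41 to -1.33), and 2127 CPM in WT nuclei against 6222 CPM in other WT neurons (-1.55, -1.77 to -1.33). Other Slc17a6 neurons of CCI had 1742 CPM, and dopaminergic neurons of CCI had 10832 CPM. Nrxn2, another neurexin, stood at 238 CPM in both CCI nuclei and other CCI neurons. Nxph1, another neurexophilin, had a log2 ratio of -0.94 in CCI (-1.04 to -0.85) and -0.32 in WT (-0.75 to 0.07). Of the 7 genes, 1 was more than 2-fold higher (14.3%, Nxph4) and 1 more than 2-fold lower (14.3%, Nrxn3) in CCI. Over all genes tested in CCI the shares were 1.11% and 2.1%. An unnamed model overlaps Nrxn3 on the other strand, and no source used here says whether counting kept to the strand.

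Across all genes, few were more than 2-fold apart from other neurons in both libraries with an interval that excluded 0. Among 15187 genes with at least 20 UMIs in each library, 6 were higher (0.0395%) and 13 were lower (0.0856%). Those higher were Sfta3-ps, Col13a1, Dgkk, Cerkl, Chek2 and an unnamed model. In the CCI library by itself 209 of 18768 genes were higher (1.11%) and 394 lower (2.1%), and in the WT library 227 of 15190 were higher (1.49%) and 94 lower (0.619%). The nuclei summed to 2180634 UMIs in CCI and 80864 UMIs in WT. When at least 5 UMIs were expected in the nuclei of both libraries, 0 of 3161 genes were higher and 12 were lower.

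Sfta3-ps was the gene most clearly higher in both libraries. It stood at 135 CPM in CCI nuclei against 31.3 CPM in other CCI neurons (log2 ratio 2.11, 1.93 to 2.29), and at 111 CPM in WT nuclei, from 9 UMIs, against 6.46 CPM in other WT neurons (4.11, 2.93 to 5.10). It lies on chromosome 12 (56488321 to 56529427, - strand, build mm10) and makes no protein. It was found in 34.2% of CCI nuclei and 13.9% of WT nuclei, against 1.26% and 0.0788% of oligodendrocyte nuclei of CCI and WT, and in 12.1% and 13.9% of CCI and WT nuclei after thinning. Other Slc17a6 neurons of CCI had 73.2 CPM. Among the CCI nuclei its level was higher in cluster 4 (424 CPM) than in cluster 1 (125 CPM). By UMIs, cluster 1 held 78 and cluster 4 held 74 of the 295 in the CCI nuclei.

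The named genes higher in both libraries also held Kcnip1, Il1rapl2 and Cntnap2. Kcnip1, a potassium channel interacting protein, stood at 447 CPM in CCI nuclei against 249 CPM in other CCI neurons (log2 ratio 0.84, 0.75 to 0.94) and at 519 CPM in WT nuclei against 174 CPM in other WT neurons (1.58, 1.10 to 2.02). Il1rapl2, a membrane protein of the interleukin 1 receptor family, had log2 ratios of 1.09 in CCI (1.02 to 1.15) and 0.88 in WT (0.53 to 1.21). Cntnap2, a neurexin-like protein of the axon, had 0.58 in CCI (0.55 to 0.60) and 0.72 in WT (0.61 to 0.83). The potassium channel gene Kcnh1, the cation channel gene Trpc5, the vesicle priming gene Unc13c and the diacylglycerol kinase genes Dgkb and Dgkk were also higher in both, with log2 ratios of 0.56 to 1.31 in CCI and 0.69 to 2.02 in WT. Some of these turned under other settings. After thinning, Kcnip1 and Trpc5 had -1.10 and -0.34 in WT and Unc13c -0.30 in CCI. With Calcr alone, Dgkb had -0.086 in CCI, and Trpc5 and Unc13c had -1.10 and -0.97 in WT. In cluster 2 of CCI, Il1rapl2 had -0.26 and Dgkk -0.34. Col13a1, a transmembrane collagen, had the highest ratio of the named genes in CCI, 3.90 in CCI (3.14 to 4.65) from 26 UMIs, and 3.88 in WT (0.75 to 5.92) from 2 UMIs. Other genes that the naming rule gave, Cd83, Brinp3, Stk32a, Astn2 and Rtl4, had log2 ratios of 0.43 to 0.86 in CCI and 0.75 to 2.61 in WT.

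Gnas, Peg10 and Magel2, each known as imprinted, were among the named higher genes. Gnas, which encodes the stimulatory G-protein alpha subunit through which the calcitonin receptor signals, stood at 924 CPM in CCI nuclei against 467 CPM in other CCI neurons (log2 ratio 0.98, 0.92 to 1.05). In WT it stood at 730 CPM in the nuclei against 429 CPM in other neurons (0.77, 0.37 to 1.14). Peg10 had log2 ratios of 0.94 in CCI (0.52 to 1.33) and 3.13 in WT (1.89 to 4.14, from 8 UMIs), and Magel2 had 0.93 in CCI (0.50 to 1.33) and 2.23 in WT (0.34 to 3.62, from 4 UMIs). Calcr, Peg10 and Asb4 lie near each other on chromosome 6 (3685680 to 3764714, 4747306 to 4760517 and 5383386 to 5433022), and Asb4 stood at 24.8 CPM in CCI nuclei against 5.56 CPM in other CCI neurons (2.16, 1.71 to 2.58) with 0 UMIs in WT nuclei. Within the CCI nuclei, these genes went with Calcr: Gnas stood at 1416 CPM in those with Calcr and 656 CPM in those with Sim1 without Calcr, Gnasas1 at 129 CPM and 26.9 CPM, Peg10 at 46.9 CPM and 14.9 CPM, and Asb4 at 50.8 CPM and 10.6 CPM in the same order. In the CCI nuclei of cluster 2 alone, Gnas and Peg10 were not above other neurons, with log2 ratios of -0.03 and -0.62. Gnas and Gnasas1 overlap on opposite strands, and their reads may be mixed if counting did not keep to the strand, which is not given. The grouping by imprinting was made after the values were seen, and not all imprinted genes measured were higher in both libraries. Sgce, next to Peg10, had log2 ratios of 0.11 in CCI and 0.12 in WT, and Nnat had 0.88 and -0.96 in the same order. Meg3 had -0.06 and -0.10, but it is a gene of the neuron rule that chose both sides, so its ratio is no result.

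**Figure D4:**
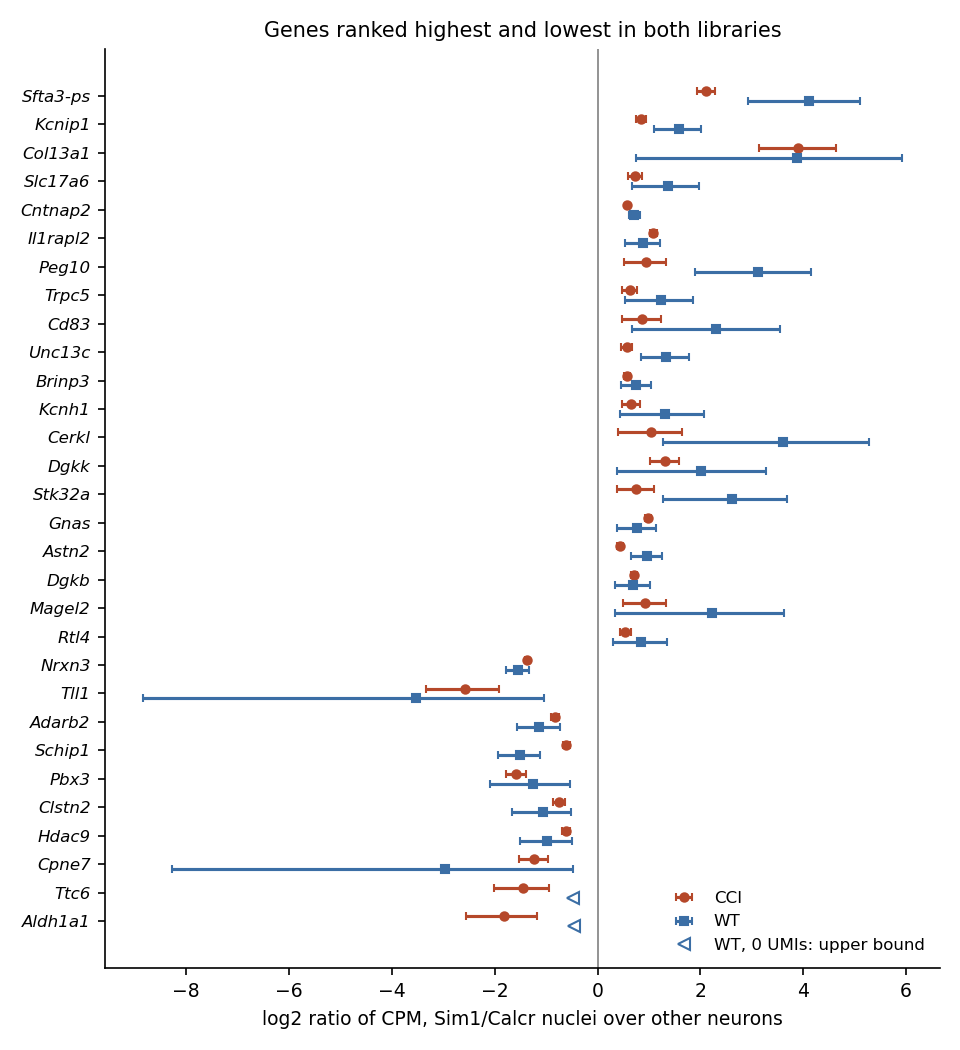
Log2 ratio of CPM in Sim1/Calcr nuclei over other neurons (horizontal axis) for the 20 highest and 10 lowest named genes of both libraries (vertical axis), in CCI (circles) and WT (squares), with exact 95% intervals. Open triangles are upper bounds for 2 genes at 0 in WT nuclei. Sfta3-ps is 2.11 in CCI and 4.11 in WT, Slc17a6 is 0.73 and 1.36, and Nrxn3 is -1.37 and -1.55.

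The genes lower than in other neurons in both libraries began with Nrxn3, given above. Aldh1a1, a retinaldehyde dehydrogenase of ventral dopaminergic neurons, stood at 8.71 CPM in CCI nuclei against 30.9 CPM in other CCI neurons (log2 ratio -1.83, -2.56 to -1.18), and had 0 UMIs in WT nuclei against 62.9 CPM in other WT neurons. Pbx3, a homeodomain cofactor, had log2 ratios of -1.59 in CCI (-1.78 to -1.39) and -1.26 in WT (-2.09 to -0.53). Tll1, a metalloprotease, had -2.58 in CCI (-3.33 to -1.91) and -3.53 in WT (-8.83 to -1.05, from 1 UMI). The named genes Adarb2, Schip1, Clstn2, Hdac9 and Cpne7 were also lower, with log2 ratios of -1.23 to -0.61 in CCI and -2.96 to -0.98 in WT, and Ttc6 had -1.45 in CCI with 0 UMIs in WT nuclei. Dopaminergic neurons were excluded from the nuclei by rule and remained among the other neurons, and against other Slc17a6 neurons only Tll1 and Ttc6 of the 10 lowest named genes were more than 2-fold lower in both libraries.

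Against all other neurons 15187 genes were tested, of which 6 were higher (0.0395%) and 13 lower (0.0856%) in both libraries. Against other Slc17a6 neurons only 4690 genes could be tested, so the counts of calls cannot be set side by side. Of these 4690 genes, 2 were more than 2-fold higher in both libraries (Il1rapl2 and Synpr) and 4 lower (Nefm, Slc17a6, Tll1 and Ttc6). The other Slc17a6 neurons were the comparison here. Slc17a6 chose those neurons, so its lower level in the Sim1/Calcr nuclei is no result. The log2 ratio of Nxph4 in CCI was 0.73 against them.

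Transcription factors of the hypothalamus moved both ways. Of 46 tested genes on a list of hypothalamic and forebrain factors, 4 were more than 2-fold higher in the CCI nuclei than in other CCI neurons (8.70%) and 10 were lower (21.7%), against 1.11% and 2.1% over all genes tested in CCI. The median log2 ratio was 0.11, against 0.02 over all genes tested in CCI, to which the list medians below also compare. Otp, which hypothalamic neurosecretory neurons need together with Sim1, stood at 10.5 CPM in CCI nuclei against 3.01 CPM in other CCI neurons (1.81, 1.11 to 2.45). Nkx2-1 had a log2 ratio of 1.90 (1.30 to 2.45) from 31 UMIs, Foxb1 2.17 (1.14 to 3.07) from 12 UMIs and Lhx5 1.03 (0.33 to 1.65) from 22 UMIs. By cluster, Nkx2-1 was highest in cluster 4 and stood at 12.8 CPM in cluster 1. Otp stood at 19.3 CPM in cluster 1 and had 0 UMIs in cluster 4, with an upper bound of 21.1 CPM, so that a difference in Otp was not detectable among these nuclei. In CCI neurons that failed the rule, Otp stood at 15.7 CPM (7.85 to 28.1) in cluster 1. It stood at 2.01 CPM (0.243 to 7.24) in those of cluster 4. The clusters were made from the same transcripts, so these values are a description. WT nuclei had 0 UMIs of Otp, Nkx2-1 and Foxb1 and 1 UMI of Lhx5. Of the 10 lower genes, Meis2 had -3.47 (-4.09 to -2.92), Tcf7l2, a factor of thalamic neurons, -2.37 (-2.78 to -1.98), and Nr4a2, a factor of dopaminergic neurons, -2.35 (-3.35 to -1.50).

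Of 20 midbrain and hindbrain factors tested, 2 were more than 2-fold higher in CCI (Pax7 and Ebf3) and 9 lower, and the median log2 ratio was -1.28. The exclusions took dopaminergic, GABAergic and Synpo2 neurons out of the nuclei and left them among the other neurons. Low levels of factors, receptors and other genes of those neurons can therefore describe the choice, and the size of that part was not tested. In CCI neurons that met the exclusions but had a sum of 0 Sim1 and Calcr UMIs, Lmx1a stood at 75.7 CPM, Tcf7l2 at 88.9 CPM and Nr4a2 at 25.1 CPM. The CCI Sim1/Calcr nuclei had 7.34, 24.8 and 5.04 CPM in the same order. Ebf3 stood at 178 CPM in CCI nuclei against 87.5 CPM in other CCI neurons (1.02, 0.87 to 1.17), and at 74.2 CPM in WT nuclei against 95.3 CPM in other WT neurons (-0.36, -1.81 to 0.77). Lmx1a and Lmx1b, factors of the midbrain floor plate and its neurons, had log2 ratios of -2.80 (-3.61 to -2.10) and -4.08 (-5.96 to -2.72) in CCI, and both had 0 UMIs in WT nuclei. En1 had -2.99 (-5.27 to -1.43), and Gata3, a factor of midbrain and hindbrain GABAergic neurons, had 0 UMIs in the nuclei of both libraries against 7.87 CPM in other CCI neurons. Over all 18768 genes tested in CCI, 1.11% were higher and 2.1% lower.

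Most neuropeptide genes were sparse in these nuclei. Of 36 tested, 2 were more than 2-fold higher in CCI nuclei than in other CCI neurons (5.56%, Trh and Cartpt) and 7 lower (19.4%). Over all genes tested in CCI the shares were 1.11% and 2.1%. The median log2 ratio of the 36 was -0.07. Trh, thyrotropin-releasing hormone, had 22 UMIs in 12 CCI nuclei and none in WT (log2 ratio 2.36, 1.62 to 3.04). Cartpt, the precursor of cocaine- and amphetamine-regulated transcript, had 31 UMIs in 23 CCI nuclei (1.24, 0.66 to 1.78). Cartpt stood at 68.8 CPM in cluster 4, against 3.21 CPM in cluster 1. Adcyap1, the precursor of PACAP, stood at 42.2 CPM in CCI nuclei (log2 ratio 0.40, 0.08 to 0.70) and reached 138 CPM in cluster 4 and 78.5 CPM in cluster 2. Sst, somatostatin, stood at 34.9 CPM in CCI nuclei against 40.1 CPM in other CCI neurons and was at 0 in cluster 2. Peptides of neighbouring hypothalamic neurons were low: Pmch, melanin-concentrating hormone, had 14 UMIs, 1 in each of 14 CCI nuclei, and a log2 ratio of -3.41 (-4.28 to -2.66). Oxt had 0 UMIs in the nuclei of both libraries. Avp had 4 UMIs in 2 CCI nuclei, and all 6 of its UMIs in the WT nuclei came from 1 nucleus.

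The partners of the calcitonin receptor were at low levels. Of 6 tested genes of its family and accessory proteins, other than Calcr, 0 were higher and 1 was lower (16.7%) in CCI nuclei. Over all genes tested in CCI, 1.11% were higher and 2.1% lower. Ramp1, Ramp2 and Ramp3, which turn the calcitonin receptor into amylin receptors, had 5, 6 and 2 UMIs in the CCI nuclei and 0 in the WT nuclei. Ramp3 was the lower one, with a log2 ratio of -3.31 (-6.36 to -1.45). Calcrl, the related receptor for CGRP and adrenomedullin, stood at 6.88 CPM in CCI nuclei against 8.26 CPM in other CCI neurons. Calca, the calcitonin and CGRP gene, had 5 UMIs in CCI nuclei and 1 in WT nuclei.

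Other receptor genes were called in both directions. Of 45 tested peptide and hormone receptors, 1 was more than 2-fold higher in CCI (the galanin receptor Galr1, 1.14, 0.38 to 1.82) and 2 lower (Ntsr1 and Tacr3), with a median log2 ratio of 0.04. The orexin receptor Hcrtr2 had a log2 ratio of 0.72 (0.46 to 0.96), the neuropeptide S receptor Npsr1 0.83 (0.56 to 1.09) and the TRH receptor Trhr 0.96 (0.46 to 1.43), all short of 2-fold. Of 34 monoamine and acetylcholine receptors, Drd3 and Htr1d were higher (5.88%) and 5 were lower (14.7%), against 1.11% and 2.1% over all genes. The lower ones held Drd2 (-1.80, -2.48 to -1.20) and the nicotinic subunit genes Chrna6 (-2.66, -4.94 to -1.10) and Chrnb3 (-3.53, -5.81 to -1.97), which dopaminergic neurons express. Among 18 ionotropic glutamate receptor genes 0 were higher and 1 was lower, and among 18 GABA-A and glycine receptor genes 0 were higher and 2 were lower.

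Between the libraries, Sim1/Calcr nuclei made up 4.39% of neurons in CCI (3.93 to 4.88) and 0.536% in WT (0.376 to 0.741). The log2 ratio of the shares was 3.03 (2.53 to 3.57), or 8.19-fold. Depth moved with this difference, with medians of 6407 UMIs per neuron in CCI and 1664 UMIs in WT. When every neuron was first thinned to 1000 UMIs, 36 of 7224 CCI neurons (0.498%, 0.349 to 0.689) and 12 of 5455 WT neurons (0.220%, 0.114 to 0.384) met the rule, and the log2 ratio was 1.18 (0.20 to 2.26). With 1 library per condition, the tissue taken, the depth and the injury cannot be told apart.

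**Figure D5:**
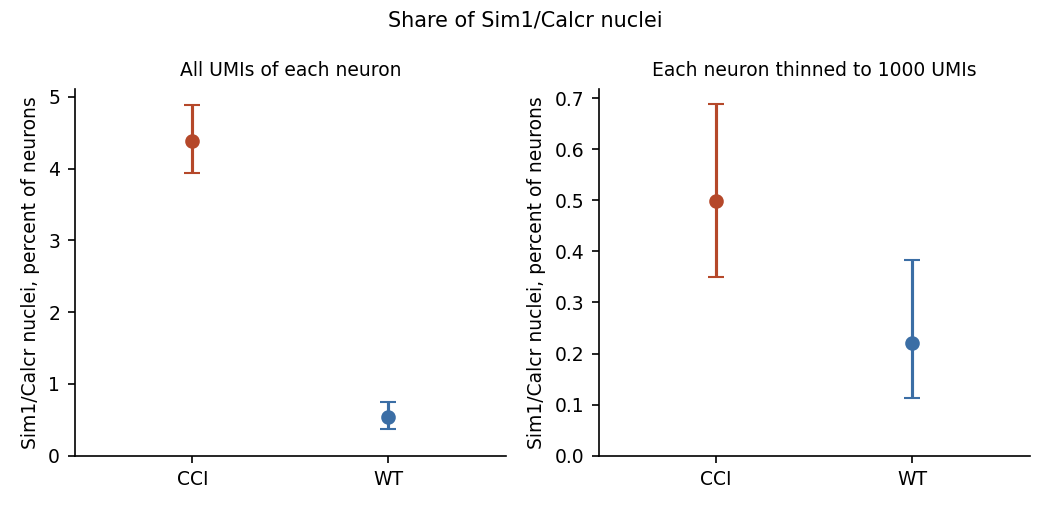
Share of Sim1/Calcr nuclei among neurons in percent (vertical axes, with different scales) in CCI and WT, from all UMIs on the left and after thinning each neuron to 1000 UMIs on the right, with exact binomial 95% intervals. The shares are 4.39% in CCI and 0.536% in WT from all UMIs, and 0.498% and 0.220% after thinning.

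A measure that does not hang on the threshold gave a smaller difference. Over all neurons, Sim1 stood at 29.0 CPM in CCI and 15.3 CPM in WT (log2 ratio 0.93, 0.71 to 1.15), and Calcr at 10.4 CPM in CCI and 5.31 CPM in WT (0.97, 0.60 to 1.35). Nxph4 stood at 18.4 CPM in CCI and 11.1 CPM in WT (0.73, 0.48 to 1.00), Slc17a6 at 147 CPM in CCI and 102 CPM in WT (0.52, 0.44 to 0.61), and Sfta3-ps at 35.5 CPM in CCI and 7.13 CPM in WT (2.32, 2.01 to 2.64). In these sums, more nuclei with a transcript and more of it per nucleus cannot be told apart.

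The makeup of the nuclei also differed between the libraries, so their transcripts were compared with that in view. Cluster 1 gave 28.9% of the CCI nuclei and 11.1% of the WT nuclei, and cluster 2 gave 23.0% of the CCI nuclei and 18 of the 36 WT nuclei. Among 6799 genes with at least 50 UMIs, 87 were more than 2-fold higher in CCI (1.28%) and 115 more than 2-fold lower (1.69%), with intervals that excluded 0. TMM scaling, which moves every log2 ratio up by 0.20, gave 213 higher and 66 lower. Within cluster 2 alone, from 74 CCI and 18 WT nuclei, 40 of 2425 genes were higher (1.65%) and 47 lower (1.94%). Ratios below are from total scaling, where the median over the 6496 genes found in both libraries was 0.04.

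The genes higher in the CCI nuclei were scattered over functions. Tafa1, a secreted chemokine-like protein of neurons, stood at 958 CPM in CCI nuclei, against 371 CPM in WT nuclei (log2 ratio 1.37, 0.85 to 1.94). It was higher in CCI within cluster 2 as well (interval of the log2 ratio 0.71 to 2.67), while other neurons had 413 CPM in CCI and 489 CPM in WT. In neurons of cluster 1 that failed the rule, Tafa1 stood at 1650 CPM in CCI and 1461 CPM in WT. In those of cluster 4 it stood at 1455 CPM in CCI and 1412 CPM in WT. Clusters 1 and 4 gave few WT nuclei, and the part of makeup in the difference of Tafa1 was not tested. Arhgap6, Anks1 and Atg4c stood at 85.3, 81.2 and 69.2 CPM in CCI nuclei and had 0 UMIs in WT nuclei. Against a floor of 3 counts in WT these were at least 2.30-fold, 2.19-fold and 1.87-fold higher in CCI, and in cluster 2 their intervals spanned 0. Genes on the other strand or on the same strand overlap Arhgap6, and 1 on the other strand overlaps Anks1. Tmx4 (1.84, 0.79 to 3.16) and Cntnap5c (1.86, 0.73 to 3.31) were higher in cluster 2 too, whereas Pde1c, Sez6, Cdh11 and Sox5 had intervals there that spanned 0.

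The genes lower in the CCI nuclei included some that mark cluster 2. Foxp2 stood at 145 CPM in CCI nuclei, against 482 CPM in WT nuclei (log2 ratio -1.73, -2.21 to -1.21), and within cluster 2 the ratio was -0.82 (-1.43 to -0.16). Ebf1 had -1.44 (-2.12 to -0.67) and within cluster 2 -1.36 (-2.27 to -0.34), and it turned to 0.84 among nuclei with at least 3 Sim1 and Calcr UMIs. Peg10 had -1.92 (-3.00 to -0.64), from 57 UMIs in CCI and 8 UMIs in WT. Invs, Zfp384, Gpc5, Sept7 and Sgcz had log2 ratios of -1.95 to -0.77 and were lower within cluster 2 too, with -2.68 to -0.58. Gatm, which makes the creatine precursor, had -2.20 (-3.23 to -0.99), with -0.97 in other neurons, and Prr5l, which led the oligodendrocyte cluster among neurons, had -1.42 (-2.17 to -0.58), with -0.70 in other neurons. Among the genes named above or in other comparisons, exons of Invs, Zfp384, Gpc5, Sept7, Prr5l, Sox5 and Brinp3 also overlap a gene on the other strand. So do those of Cerkl, Ttc6, Ebf3, Lhx5, Foxb1, Pmch, Npsr1, Gata3 and Slc32a1. Reads of such a pair may be mixed if counting did not keep to the strand, which is not given. Exons of Cerkl, Gata3, Schip1 and Cpne7 overlap a gene on the same strand.

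Oligodendrocyte RNA moved with the libraries. The 11 oligodendrocyte markers summed to 564 CPM in CCI nuclei and 1793 CPM in WT nuclei, and to 576 CPM in other CCI neurons and 1696 CPM in other WT neurons. Of the 7 tested between libraries, 6 were more than 2-fold lower in the CCI nuclei, against 1.69% of all genes tested. All 11 were found in the nuclei of both libraries. Mitochondrially encoded genes summed to 2360 CPM in CCI nuclei and 3537 CPM in WT nuclei. The 10 astrocyte markers summed to 241 CPM in CCI nuclei and 284 CPM in WT nuclei, and the 9 microglia markers to 135 CPM and 124 CPM in CCI and WT nuclei. The part of these RNAs in the differences above was not tested.

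Genes of neuronal activity and stress gave 1 call in each list against other neurons, each from few UMIs. Of 16 immediate early genes tested in CCI nuclei against other CCI neurons, 1 was higher (6.25%, Fosb, from 6 UMIs) and 0 were lower. Over all genes tested in CCI, 1.11% were higher and 2.1% lower. All 18 immediate early genes of the list summed to 181 CPM in CCI nuclei and 309 CPM in WT nuclei. Homer1 by itself gave 83.0 CPM in CCI nuclei and 173 CPM, from 14 UMIs, in WT nuclei. Of the 18 genes, 9 had 0 UMIs in WT nuclei. Fos itself had 7 UMIs in CCI nuclei and 1 in WT nuclei. Of 11 heat shock genes 1 was higher (9.09%, Hspa1b, from 5 UMIs). Between the libraries only 1 immediate early gene, Homer1, and 7 heat shock genes had 50 UMIs. Of these, Homer1 was lower in CCI and the heat shock genes gave no call, so the list as a whole could not be compared.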

How the data were processed

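Nuclei of the VTA were profiled in 2 10x Genomics libraries, 1 CCI and 1 WT. Nuclei are named in the series design, whereas the protocol in the labels is an enzymatic digestion of tissue. The deposited values are raw UMI counts for each gene in each barcode. Cell Ranger 7.1.0 produced them per the file headers, and the submitters' processing notes name build mm10 and Seurat without settings. Whether intronic reads or the strand were counted is not given in the sources used here. All barcodes of both libraries entered, and 0 columns belonged to other samples. Of 32285 gene identifiers, 32158 (99.6%) were found in GENCODE vM21, which gave coordinates and overlaps.

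The membership rule was applied to the counts with no doublet removal, and doublets were called within each library with Scrublet in Scanpy 1.11.5 as an alternative. For each library and class the counts were added up and scaled to CPM by total UMIs. Log2 ratios carry exact conditional 95% intervals, CPM exact Poisson intervals and shares Clopper-Pearson intervals (SciPy 1.17.1). A gene was called past 2-fold where the ratio exceeded it and the interval excluded 0. Against other neurons a gene needed 20 UMIs in the sum of both kinds of nuclei, and between libraries 50 UMIs. A ratio against 0 was set at a floor of 3 counts. The script for these ratios was tested on simulated data. All neurons were clustered from 2000 variable genes scaled within each library, 30 components and 20 neighbours with leidenalg 0.10.2 at a resolution of 1.0. For thinned shares of nuclei with a gene, nuclei were chosen from all UMIs and then thinned, while thinned ratios and shares of neurons come from nuclei chosen after thinning. In both every nucleus was reduced to 1000 UMIs and shallower ones were left out. TMM factors came from edgeR 4.0.16.

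Other classes were set by rule in this order: dopaminergic neurons (0.1% or more of the 4 dopamine genes), GABAergic neurons, Synpo2 neurons (0.1%), Ebf neurons (0.03%), other Slc17a6 neurons (0.03%) and remaining neurons, with 2 UMIs needed in each. Oligodendrocyte nuclei were non-neuronal barcodes with 1% or more of oligodendrocyte transcripts.

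Named genes were the 20 highest and 10 lowest against other neurons in both libraries and the 10 highest and 10 lowest between libraries, ordered by the bound of the interval that lay closest to 0, together with members of 22 gene lists with the most UMIs or the farthest ratio. Genes of the rule, mitochondrially encoded, ribosomal, haemoglobin and Y chromosome genes, Xist, Tsix, unnamed models and glial markers were not ranked. The genes named for 1 pattern, 1 cluster or CCI by itself were chosen after their values were seen. The nuclei, the lists and the tests were chosen with earlier results of these data known. Alternatives were other thresholds and genes of the rule, thinning, doublet removal, filters on barcodes, no GABA exclusion, other least counts, TMM scaling, weighting by nucleus, another denominator and other Slc17a6 neurons as the comparison. Further ones, by cluster, seed, CCI by itself and expected counts, were chosen after seeing the data.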

Additional observations from a re-analysis of the deposited data

How the results depend on the processing

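With 1 library per condition no result was tested, and values describe these libraries. No paired analysis was possible because each group held 1 library, so no library could be left out either. The log2 ratio of shares, 3.03, was 4.33 at 3 UMIs, 1.18 after thinning to 1000 UMIs (1.05 and 1.07 with other seeds) and 0.94 as Sim1 and Calcr CPM over all neurons. Genes higher than in other neurons in both libraries, 6, numbered 2 with Sim1 alone, 3 at a least count of 50 UMIs, 2 against other Slc17a6 neurons, 0 with at least 5 UMIs expected, 3 outside cluster 1 and 209 in CCI alone. Genes lower, 13, numbered 5 at 3 UMIs, 5 after thinning, 4 against other Slc17a6 neurons, 7 outside cluster 1 and 394 in CCI alone. The log2 ratio of Nxph4 in CCI, 1.90, was 1.33 with Sim1 alone, 2.44 with Calcr alone, 0.73 against other Slc17a6 neurons and 1.40 outside cluster 1. That of Slc17a6 in CCI, 0.73, was 0.31 after thinning, 0.89 with Sim1 alone and 0.31 with Calcr alone, and in WT, 1.36, it was 2.12 in cluster 2. Between libraries, the 87 genes higher in CCI numbered 28 at 3 UMIs, 5 after thinning, 38 with Calcr alone, 213 under TMM scaling and 40 in cluster 2. The 115 lower numbered 5 after thinning, 59 with Calcr alone, 66 under TMM scaling, 192 at a least count of 20 UMIs, 59 at a least count of 100 UMIs and 47 in cluster 2. Thinning before the nuclei were chosen left no Nxph4 UMI in them, and Calcr alone left no WT value of it. The cause of these shifts was not tested.

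Some named genes changed direction. After thinning, log2 ratios over other neurons were -1.10 for Kcnip1, -0.34 for Trpc5, -0.48 for Astn2 and -0.42 for Rtl4 in WT, and -0.30 for Unc13c and 0.72 for Ttc6 in CCI. With Calcr alone they were -1.10 for Trpc5, -0.97 for Unc13c and -0.084 for Rtl4 in WT, and -0.086 for Dgkb in CCI. In cluster 2 of CCI they were -0.26 for Il1rapl2, -0.62 for Peg10, -0.056 for Cerkl, -0.34 for Dgkk, -2.44 for Stk32a and -0.033 for Gnas. The ratio of Ebf1 between libraries was 0.84 at 3 UMIs and 0.00 after thinning. Thinning before the choice left 36 CCI and 12 WT nuclei, so depth limited these ratios.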

Other observations

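In the CCI library taken by itself, a further set of genes ranked high against other neurons, and they were chosen after their values were seen. Several encode G-protein-coupled receptors. Gpr50, related to melatonin receptors, had 9 UMIs in the CCI Sim1/Calcr nuclei and a log2 ratio of 3.48 (2.15 to 4.70), and 8 of the 9 lay in cluster 1. Grpr, the gastrin-releasing peptide receptor, had 14 UMIs and a ratio of 2.24 (1.30 to 3.08), and Gpr101, an orphan receptor, had 60 UMIs and 1.32 (0.91 to 1.71). None of the 3 had a UMI in the WT nuclei.

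Transcription factors other than those given above also ranked high. Bsx, a hypothalamic homeobox factor, had 11 UMIs and a log2 ratio of 3.21 (2.06 to 4.26), Sall3 16 UMIs and 2.24 (1.36 to 3.02), and Eya4 38 UMIs and 1.51 (0.99 to 2.00) in CCI. Dach1 stood at 352 CPM in the CCI nuclei against 171 CPM in other CCI neurons (1.04, 0.93 to 1.15), and at 247 CPM in the WT nuclei against 165 CPM in other WT neurons (0.59, -0.13 to 1.22). Within the CCI nuclei, Dach1 stood at 845 CPM in cluster 6 and 663 CPM in cluster 1, against 28.7 CPM in cluster 4. Among the lowest genes of CCI were Ret, the GDNF receptor (-3.85, -5.29 to -2.72), Bnc2 (-3.52, -4.58 to -2.64) and Tph2 (-4.86, -10.16 to -2.37, from 1 UMI).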
